A study of Mus musculus with 2 samples.

Results

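Genes of intestinal fibroblasts and of the stroma around the crypts, 10 in all, were followed in untreated mice: *Pdgfra*, *Pdgfrb*, *Grem1*, *Wnt5a*, *Dcn*, *Lum*, *Pi16*, *Dpt*, *Mgp* and *Fbln1*. They were chosen by gene symbol, and all 10 were found among the 40879 symbols counted. The study asked which intestinal genes differ when ERAP1, an aminopeptidase of the endoplasmic reticulum that trims peptides for antigen presentation, is reduced. RNA of the intestine was sequenced as 1 library labelled WT (wild type) and 1 labelled ERAP1+/- (heterozygous, called hetero type in the labels), each pooled from 3 mice on the C57BL/6 background that were 8 weeks old at the start and received neither DSS nor sulfasalazine. The ERAP1+/- mice came from a cross of the ERAP1 tm1a line with a strain expressing Cre recombinase, which removes exons 6 and 7. The strain and promoter of the Cre are not given in the sources used here. The labels call the tissue intestine, and the study describes it as colon.

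Fibroblasts of the gut wall make the collagen, proteoglycans and elastic fibres on which the epithelium and the muscle rest, and they also hold the signals that keep crypt stem cells in place. Cells beneath the crypts release BMP antagonists and Wnt agonists, while subepithelial cells nearer the lumen, with high *Pdgfra*, release BMP and Wnt5a, so that stem cells lie at 1 end of the gradient and mature cells at the other. A further fibroblast population surrounds larger vessels in the submucosa and is marked by *Pi16* and *Dpt*. In RNA of whole tissue, fewer cells of a type and less RNA per cell cannot be told apart.

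The libraries read the 3′ ends of polyadenylated transcripts and held 8114826 (WT) and 8907515 (ERAP1+/-) counted reads. Levels are given as CPM (counts per 1e6 reads, with library sizes adjusted by TMM, the trimmed mean of M values), and differences as log2(CPM + 1) of the library labelled ERAP1+/- minus that of the WT library, a scale that understates the change of low genes. With 1 library per genotype, no difference has a replicate check and no p-value is given. Intervals are exact at 95%, cover only the error of counting, and reads without molecular identifiers are not independent molecules. The targeted gene *Erap1* had 229 and 2 reads. Reads from the 3′ end lie outside the deleted exons and do not test the deletion. The ratio of 0.0073 (0.000878 to 0.0267) is far below the level of a heterozygote, so that the second library is named by its label. *Xist*, the RNA that coats the silent X in female cells, had 1635 and 6451 reads. The sex of the mice is not given in the sources used here, and sex and genotype cannot be told apart. In both libraries the general fibroblast genes *Vim*, *Sparc* and *Fn1* had 1420 to 3810 reads each, and *Col1a2* had 6860 and 7410, so that stroma was sampled in both. A low count did not show that a gene is silent: *Cd81*, a membrane protein of most cells, had 2 and 1 reads.

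The members are spread over 9 chromosomes of the GRCm38 build in the GENCODE M21 annotation, and *Dcn* and *Lum* share chromosome 10. *Dcn* runs from 97479609 to 97518143 on the plus strand and *Lum* from 97565128 to 97572703, followed by their relatives *Kera* and *Epyc* with no other coding gene between them, a stretch of 202846 bp. *Pi16* spans 29317680 to 29330593 of chromosome 17 (plus strand), *Dpt* on chromosome 1 from 164796644 to 164824266, and *Fbln1* on chromosome 15 from 85205949 to 85286535. Because only 3′ ends were read, the number of annotated ends bears on what a count sums: *Grem1*, *Lum*, *Dpt* and *Mgp* have 1 coding transcript and 1 end each, whereas *Fbln1* has 2 ends, *Pi16* 4 and *Pdgfra* 6. The deposited tables give 1 count per symbol and do not separate them. RefSeq promoter windows of build GRCm38.p6, from 250 bases before to 50 after the start site, were found for 5 members (*Dpt*, *Grem1*, *Pdgfra*, *Fbln1* and *Pi16*). Those of *Pi16* and *Fbln1*, the members with the lowest and highest ratio between the libraries, and of *Dpt*, which like *Pi16* is high in adventitial fibroblasts, are shown 5′ to 3′ on the plus strand, at chr17:29318632-29318931, chr15:85205758-85206057 (the later of 2 RefSeq starts) and chr1:164796413-164796712, with motif matches on either strand in capitals. The motifs searched were the TATA box (TATAAA), the GC box of Sp1-type factors (GGGCGG), the TEAD motif (GGAATG) and the CCAAT box (CCAAT), none of which overlapped another.
Pi16: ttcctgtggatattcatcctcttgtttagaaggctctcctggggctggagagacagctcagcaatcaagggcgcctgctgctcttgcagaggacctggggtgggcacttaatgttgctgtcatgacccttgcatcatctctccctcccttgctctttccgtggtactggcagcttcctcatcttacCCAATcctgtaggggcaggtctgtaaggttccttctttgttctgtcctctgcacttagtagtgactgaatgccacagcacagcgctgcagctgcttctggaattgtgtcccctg
Fbln1: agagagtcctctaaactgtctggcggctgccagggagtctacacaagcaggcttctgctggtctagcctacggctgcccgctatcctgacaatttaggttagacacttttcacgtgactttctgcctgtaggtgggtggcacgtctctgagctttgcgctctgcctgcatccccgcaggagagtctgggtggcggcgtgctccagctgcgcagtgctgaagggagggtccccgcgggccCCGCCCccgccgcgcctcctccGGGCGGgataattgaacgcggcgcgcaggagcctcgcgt
Dpt: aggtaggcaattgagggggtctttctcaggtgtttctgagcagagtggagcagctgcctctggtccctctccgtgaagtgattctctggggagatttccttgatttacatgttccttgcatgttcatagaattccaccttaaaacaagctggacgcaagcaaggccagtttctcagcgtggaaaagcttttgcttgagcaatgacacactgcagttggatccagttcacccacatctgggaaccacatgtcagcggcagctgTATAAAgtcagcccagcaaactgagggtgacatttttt
The *Pi16* window held 1 CCAAT and no other match, and the *Dpt* window 1 TATAAA, which lay after the RefSeq start. The *Fbln1* window shown held GGGCGG in both orientations. That of the earlier RefSeq start, at chr15:85205699-85205998, held none of the motifs. A match describes the letters and is not evidence of binding. Of all 32851 promoter windows, 37.4% held CCAAT, 35.7% GGGCGG, 14.7% GGAATG and 13.6% TATAAA. The windows of *Pi16* and *Dpt* had 3 and 4 CG dinucleotides, against a median of 7 over all windows, and 23.3% and 31.4% of all windows had fewer. The *Pdgfra* window had 5, that of *Grem1* 28, the *Fbln1* window shown 24 and the other *Fbln1* window 12. The GENCODE start of *Pi16* lies upstream of the *Pi16* window, so that the window shows 1 of its annotated starts.

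The stromal genes did not move as a block. All 10 passed a log2(CPM + 1) of 4, that is 15 CPM, in 1 or both libraries, and 6 were lower and 4 higher in the library labelled ERAP1+/-. *Pi16* alone passed 2-fold on the log2(CPM + 1) scale, which is 1 of 10 beside 5.34% of the 8013 genes past that level (3.96% lower and 1.39% higher). *Pi16* passed the level only through the WT library (4.26 against 3.21). *Pdgfrb* and *Wnt5a* passed it only through the other library, where each was higher. A filter on the higher of the 2 libraries favours such differences. The differences ran from -1.05 for *Pi16* to 0.63 for *Fbln1*, with a median of -0.18, against -0.03 over the 8013 genes, with quartiles of -0.28 and 0.21. Of the members, 3 lay between those quartiles. The counting interval of the ratio excluded 1 for 7 of the 10, beside 57.9% of all genes past the level. It lay below 1 for *Dcn*, *Dpt*, *Pi16*, *Grem1* and *Mgp* (5 of 10, beside 32.4%) and above 1 for *Fbln1* and *Pdgfrb* (2 of 10, beside 25.5%), so that such an interval was no rarity at this depth. Scaling by the total count in place of TMM raised every log2 ratio by 0.13, and under it *Pi16* no longer passed 2-fold, the interval of *Wnt5a* lay above 1 and that of *Grem1* included 1. Of the genes named below that are no members, *Fzd2*, *Ryk*, *Ogn* and *Col1a2* have intervals below 1 that include 1 under that scaling, and *Bmp5*, *Id1*, *Bgn*, *Hhip* and *Efemp2* intervals that include 1 and then lie above it.

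**Figure D1:**
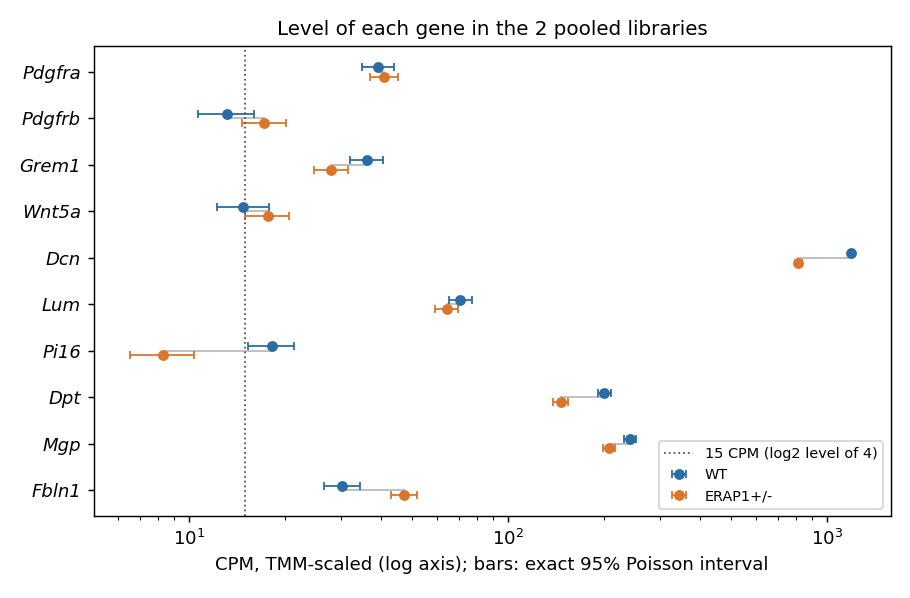
CPM (TMM-scaled, log axis) of the 10 stromal genes in the pooled WT library (blue) and the pooled library labelled ERAP1+/- (orange), with exact 95% Poisson intervals of the counts. *Dcn* is at 1193 and 814 CPM, and *Pi16* crosses the 15 CPM line, from 18.1 to 8.28.

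Among the growth factor receptors, the PDGF receptors, tyrosine kinases that drive growth and migration of mesenchymal cells, were at or above the WT level. *Pdgfra* (chromosome 5, 75152292 to 75198215, plus strand), carried by most gut fibroblasts and highest in subepithelial ones, had 305 reads (39.3 CPM) for WT and 380 (40.8 CPM) for the library labelled ERAP1+/-, a ratio of 1.04 (95% interval 0.893 to 1.21). The libraries did not differ in *Pdgfra* beyond counting error. *Pdgfrb* (chromosome 18, 61045150 to 61085061, plus strand), typical of pericytes and of fibroblasts near vessels, had 102 and 160 reads (13.1 and 17.2 CPM), a ratio of 1.31 (1.02 to 1.70), so that its interval only just excluded 1. The number of *Pdgfra* reads per *Pdgfrb* read was 2.99 and 2.38, a ratio of ratios of 0.794 whose interval (0.587 to 1.07) included 1, and this measure needs no scaling between libraries. Of the ligands, *Pdgfa*, which epithelial cells secrete toward the stroma, had 1455 and 1195 reads and was 1.46-fold lower (1.35 to 1.57). *Pdgfb*, *Pdgfc* and *Pdgfd* had 27 to 61 reads per library, and their ratios of 0.726, 0.866 and 0.951 all had intervals that included 1. Both receptors adjoin related kinase genes: *Kit*, the next coding gene after *Pdgfra*, had 72 and 202 reads (ratio 2.34, 1.78 to 3.11), and *Csf1r*, next after *Pdgfrb*, had 287 and 539 (ratio 1.57, 1.36 to 1.82). Pericyte markers gave no common direction, with *Rgs5* at a ratio of 1.14 (1.04 to 1.24), *Abcc9* at 1.44 (1.20 to 1.73) and *Notch3* 2.92-fold lower (1.81 to 4.86), and a median difference of 0.06 over the 7 of 8 with at least 10 reads.

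The secreted niche factors had ratios on opposite sides of 1. *Grem1* (chromosome 2, 113746164 to 113758646, minus strand), a BMP antagonist of the cells beneath the crypts, had 281 and 260 reads (36.2 and 27.9 CPM) and was 1.29-fold lower (1.09 to 1.54), or at a ratio of 0.843 with an interval up to 1.00 when scaled by the total count. *Wnt5a* (chromosome 14, 28504750 to 28527448, plus strand), a Wnt ligand that signals largely without β-catenin, had 115 and 164 reads (14.8 and 17.6 CPM), a ratio of 1.19 (0.933 to 1.53) whose interval included 1, and 1.30 (1.02 to 1.66) by the total count. Per *Grem1* read there were 0.409 *Wnt5a* reads for WT and 0.631 for the other library, a ratio of ratios of 1.54 (1.14 to 2.09). This shift within the niche pair does not depend on the scaling.

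On the BMP side, 3 of 6 ligands had an interval below 1 and 3 one that included it. Of all 16142 genes with at least 10 reads over both libraries, 23.8% had an interval below 1 and 20.6% one above. *Bmp2*, made by mature epithelium as well as stroma, had 1883 and 1367 reads and was 1.65-fold lower (1.54 to 1.77). *Bmp4*, a ligand of the subepithelial stroma, was 1.32-fold lower (1.24 to 1.41; 1860 and 1684 reads), and *Bmp3* had a ratio of 0.708 (0.611 to 0.820). *Bmp5* was at 1.18 (0.918 to 1.51), *Bmp6* at 0.967 (0.612 to 1.53) and *Bmp7* at 1.29 (0.827 to 2.03). The sum over the 6 ligands was 4329 and 3647 reads. Over the 10 other BMP antagonists the differences ran from -0.74 (*Sostdc1*, 57 and 37 reads) to 0.98 (*Bambi*, a decoy receptor, 65 and 162 reads). Of their intervals, 2 lay above 1, 3 below and 5 included it, beside the same shares of 20.6% above and 23.8% below. Of 10 BMP receptors and target genes with at least 10 reads, 6 had an interval that included 1, 3 one below and 1 one above. Their median was -0.05, or 0.08 by the total count. *Id2* was 1.36-fold lower (1.25 to 1.49) and *Id4* 1.38-fold lower (1.23 to 1.55). *Smad6*, an inhibitor that BMP signals induce, was higher at a ratio of 1.70 (1.21 to 2.42), under the level of 15 CPM in both libraries. *Id1* had 2101 and 2490 reads, a difference of -0.01.

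On the Wnt side, the receptors of *Wnt5a* did not differ one way. *Ror2* had 52 and 107 reads (ratio 1.72, 1.22 to 2.44), *Ror1* 46 and 81 (1.47, 1.01 to 2.16) and *Vangl1*, a planar polarity protein, 222 and 337 (1.27, 1.07 to 1.51), whereas *Fzd2* was 1.22-fold lower (1.00 to 1.48). The receptor kinase *Ryk* had 1197 and 1304 reads, a ratio of 0.910 (0.841 to 0.985), and *Ptk7* one of 1.02 (0.777 to 1.35). Of the 9 genes, 3 had an interval above 1, 3 below and 3 including it (by the total count none lay below), and the median was -0.0012, or 0.12 by the total count. Beside them, 20.6% of the 16142 genes had an interval above 1 and 23.8% one below. *Rspo3*, the main R-spondin of the crypt base, had 196 and 229 reads, a ratio of 0.976 (0.803 to 1.19). *Wnt2b* had 4 and 7 reads, too few to compare. *Wnt4* was 2.01-fold lower (1.45 to 2.80; 104 and 62 reads), and the Wnt inhibitor *Dkk2* was 2.75-fold lower (1.91 to 4.01; 101 and 44 reads), both under the level of 15 CPM in both libraries. The median over 9 other Wnt ligands and R-spondins with at least 10 reads was -0.63, 7 of them below 0. Only *Rspo3* of the 9 passed the level, so that few reads lie behind this median. Of the 9 intervals, 5 included 1 and 4 lay below it (2 by the total count). Over 8 secreted Wnt inhibitors the median was 0.04. Over the 16142 genes with at least 10 reads the median was 0.00 and 49.7% lay below 0.

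**Figure D2:**
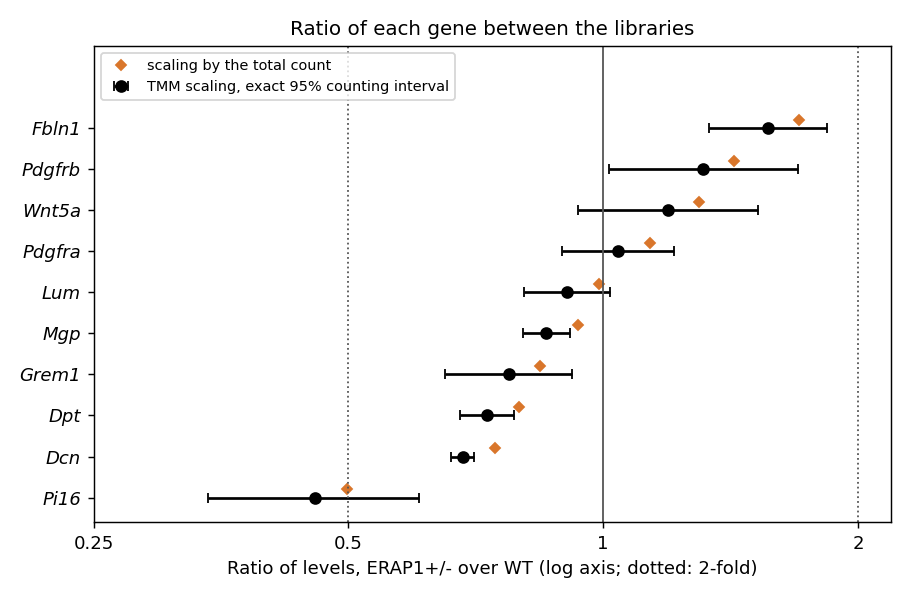
Ratio of the library labelled ERAP1+/- over WT for each of the 10 stromal genes on a log axis, with exact 95% counting intervals under TMM scaling (black) and the ratio under scaling by the total count (orange). The genes form a graded series from *Pi16* at 0.456 to *Fbln1* at 1.56, and under TMM scaling 3 intervals cross the line at 1, those of *Lum*, *Pdgfra* and *Wnt5a*.

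The small leucine-rich proteoglycans *Dcn* and *Lum*, neighbours on chromosome 10 that bind collagen fibrils and set their width and spacing, differed from each other. Decorin (*Dcn*) supplied most reads of the 10 genes, with 9267 for WT and 7568 for the library labelled ERAP1+/- (1193 and 814 CPM), and was 1.47-fold lower (1.42 to 1.51). Lumican (*Lum*) had 551 and 598 reads (70.9 and 64.3 CPM), a ratio of 0.907 (0.806 to 1.02) that counting error covers. Reads of *Dcn* per read of *Lum* went from 16.8 to 12.7, a ratio of ratios of 0.752 (0.666 to 0.850), so that *Dcn* was lower relative to *Lum* whatever the scaling. The next gene of the cluster, *Kera*, keratocan, had 23 WT reads and 1 in the other library (ratio 0.0363, 0.000882 to 0.224), and *Epyc* had none in both. Elsewhere in the genome, biglycan (*Bgn*), the closest relative of decorin, had 617 and 776 reads, a ratio of 1.05 (0.944 to 1.17). *Ogn* was 1.16-fold lower (1.04 to 1.28), *Aspn* had a ratio of 0.919 (0.811 to 1.04), and *Prelp* was higher at 1.40 (1.16 to 1.68). *Fmod* had 3 and 9 reads. The median over 11 other proteoglycans with at least 10 reads was -0.12, or 0.00 by the total count, so that *Dcn* lay below the middle of its family.

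The adventitial markers were the lowest members beside *Dcn*. *Pi16*, a secreted protein of the CAP family that marks fibroblasts around vessels, had 141 and 77 reads (18.1 and 8.28 CPM) and was 2.19-fold lower (1.65 to 2.93). The interval includes 2, so that the reads do not settle on which side of 2-fold it lies, and under the total count it was 2.01-fold lower with a difference of -0.93. Of the 8013 genes past the level, 3.63% had a lower difference than *Pi16*, which passed it only through the WT library. *Dpt*, dermatopontin, a matrix protein that binds decorin, had 1559 and 1359 reads (201 and 146 CPM) and was 1.37-fold lower (1.28 to 1.48). Per *Pi16* read, *Dpt* reads went from 11.1 to 17.6, a ratio of ratios of 1.60 (1.19 to 2.16), so that *Pi16* was lower than *Dpt* too. Of 14 other adventitial genes, all with at least 10 reads, 11 lay below 0, 9 had an interval below 1 and 2 above, beside 23.8% and 20.6% of the 16142 genes. Such an interval depends on depth, and 10 of the 14 were past the level, where the shares were 32.4% and 25.5%. *Ackr3*, a scavenging chemokine receptor, was 2.10-fold lower (1.68 to 2.62; 224 and 128 reads) and was the only one of the 10 past the level to differ more than 2-fold, a call that scaling by the total count ends (difference -0.90), as it does for *Pi16*. By the total count, 7 of the 14 intervals lay below 1. *Pcolce2*, which aids procollagen processing, was 2.23-fold lower (1.61 to 3.12), below the level in both libraries, and *Ly6a*, which encodes Sca-1 and is also made by epithelium and endothelium, was 1.71-fold lower (1.61 to 1.82). *Dpp4*, a peptidase that is also on epithelium and lymphocytes, was higher at a ratio of 1.78 (1.39 to 2.29). Of 4 relatives of *Pi16* in the CAP family with at least 10 reads, 2 lay above 0 and 2 below. *Crispld2* was at a ratio of 0.946 (0.854 to 1.05), *Glipr1* at 1.50 (1.12 to 2.02) and *Glipr2* at 1.11 (0.856 to 1.44). *Crispld1*, with 24 and 20 reads, was at 0.696 (0.365 to 1.31), an interval that holds the ratio of *Pi16*.

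*Mgp* and *Fbln1* are matrix glycoproteins of another kind. *Mgp* (chromosome 6, 136872435 to 136875823, minus strand), the matrix Gla protein that keeps vessel walls and cartilage from calcifying, had 1877 and 1925 reads (242 and 207 CPM) and was 1.17-fold lower (1.09 to 1.24). By the total count its ratio was 0.934 (0.876 to 0.996). Gamma-carboxylation activates Gla proteins. Of 6 genes of that step or of Gla proteins with at least 10 reads, 2 had an interval above 1 (4 by the total count), 4 included 1 and none lay below. Of the 16142 genes, 20.6% had an interval above 1. *Vkorc1*, which recycles vitamin K, had 269 and 439 reads (ratio 1.36, 1.17 to 1.59), and *Gas6*, another Gla protein, 1595 and 2701 (ratio 1.41, 1.33 to 1.51). The carboxylase *Ggcx* had 81 and 95 reads, a ratio of 0.980 (0.721 to 1.33). *Fbln1*, fibulin 1, a glycoprotein of basement membranes and elastic fibres, had 235 and 440 reads (30.2 and 47.3 CPM), and at a ratio of 1.56 (1.33 to 1.84) it was the highest member. Of the 8013 genes, 95.3% had a lower difference. Under TMM scaling none of 5 other fibulins had an interval above 1: *Fbln2* had a ratio of 0.908 (0.716 to 1.15), *Fbln5* of 1.10 (0.802 to 1.51), *Fbln7* of 0.746 (0.417 to 1.33) and *Efemp1* of 0.711 (0.590 to 0.855). *Efemp2*, with 34 and 59 reads, had a ratio of 1.45 (0.935 to 2.28), an interval that holds the ratio of *Fbln1*. By the total count the interval of *Efemp2* lay above 1. Elastic fibre genes and fibulins other than *Fbln1* had a median of -0.24 over 18 with at least 10 reads, 13 of them below 0 and 7 with an interval below 1 (3 by the total count; *Mfap5*, 164 and 127 reads, was 1.55-fold lower, 1.22 to 1.96), and 1 interval above 1 (*Fbn2*, 19 and 46 reads; 3 by the total count). Beside these counts, 23.8% of the 16142 genes had an interval below 1 and 20.6% one above. The next coding gene after *Fbln1*, *Atxn10*, had 167 and 347 reads, a ratio of 1.74 (1.44 to 2.10). Reads of *Fbln1* per *Pi16* read went from 1.67 to 5.71, a ratio of ratios of 3.42 (2.46 to 4.79), the widest gap between members. This pair joins the members with the highest and the lowest ratio, picked after the values were seen, so that its interval is no test.

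**Figure D3:**
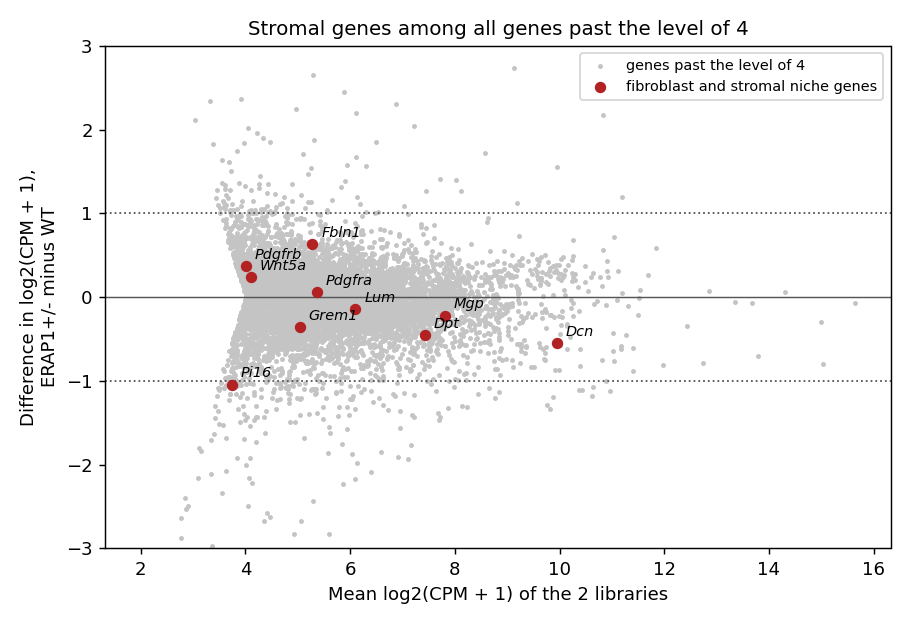
Difference in log2(CPM + 1) of the library labelled ERAP1+/- minus WT against the mean log2(CPM + 1) of both libraries, for all genes past the level of 4 (grey) and the 10 stromal genes (red), with dotted lines at 2-fold. The vertical axis stops at 3 in both directions and leaves out 4 genes above and 120 below. *Pi16* sits just past the lower dotted line and the other members lie between the lines.

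The mix of the 10 genes thus differed between the libraries. Together they took 14433 WT reads and 12931 in the other library, 0.178% and 0.145% of all reads, a ratio of 0.748 (0.731 to 0.766). Without *Dcn* the ratio was 0.867 (0.834 to 0.901; 5166 and 5363 reads), so that *Dcn* carried much of the sum. *Dcn* made up 64.2% of the reads of the 10 genes in the WT library (exact Clopper-Pearson interval 63.4% to 65.0%) and 58.5% in the library labelled ERAP1+/- (57.7% to 59.4%). The share of *Fbln1* went from 1.63% (1.43% to 1.85%) to 3.40% (3.10% to 3.73%) and that of *Pi16* from 0.977% (0.823% to 1.15%) to 0.595% (0.470% to 0.744%). *Dpt* was at 10.8% and 10.5% of the sum and *Grem1* at 1.95% and 2.01%, both with odds ratios whose intervals included 1. Shares of a fixed sum rise where the share of *Dcn* falls. Those of *Pdgfra*, *Pdgfrb*, *Wnt5a*, *Lum* and *Mgp* rose too, with odds ratios of 1.40, 1.76, 1.60, 1.22 and 1.17 and intervals above 1. In CPM, *Lum* and *Mgp* were nevertheless lower than in the WT library.

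Set against other reads of the wall, the picture depended on the reference. The 8 fibrillar and type VI collagen genes, the main product of fibroblasts, had 18011 and 20483 reads together, a ratio of 0.950 (0.931 to 0.969) that turned to 1.04 (1.02 to 1.06) by the total count, with *Col1a2* at 0.902 (0.873 to 0.933) and a median difference of -0.07, or 0.05 by the total count. Relative to these collagen reads, *Pi16*, *Dcn*, *Dpt*, *Grem1* and *Mgp* were lower, *Fbln1* and *Pdgfrb* higher, and *Lum*, *Pdgfra* and *Wnt5a* within counting error. *Pi16* was at 0.480 (0.359 to 0.639) of the WT number of reads per collagen read, *Dcn* at 0.718 (0.692 to 0.745) and *Fbln1* at 1.65 (1.40 to 1.94). The 10 smooth muscle genes had 88391 and 53916 reads and were 1.96-fold lower together (1.94 to 1.98). Each of the 10 was lower, *Tagln* by 2.27-fold (2.22 to 2.33) and *Myh11* by 2.16-fold (2.10 to 2.21). Relative to smooth muscle reads, 9 of the 10 stromal genes were higher in the library labelled ERAP1+/-, from 1.34 (1.30 to 1.38) for *Dcn* to 3.07 (2.61 to 3.61) for *Fbln1*, and *Pi16* was at 0.895 (0.669 to 1.19). Because this reference was itself 1.96-fold lower, a gene at an unchanged level also comes out higher against it. The count of 9 is therefore not a result about the stromal genes, and the share over all genes was not computed.

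**Figure D4:**
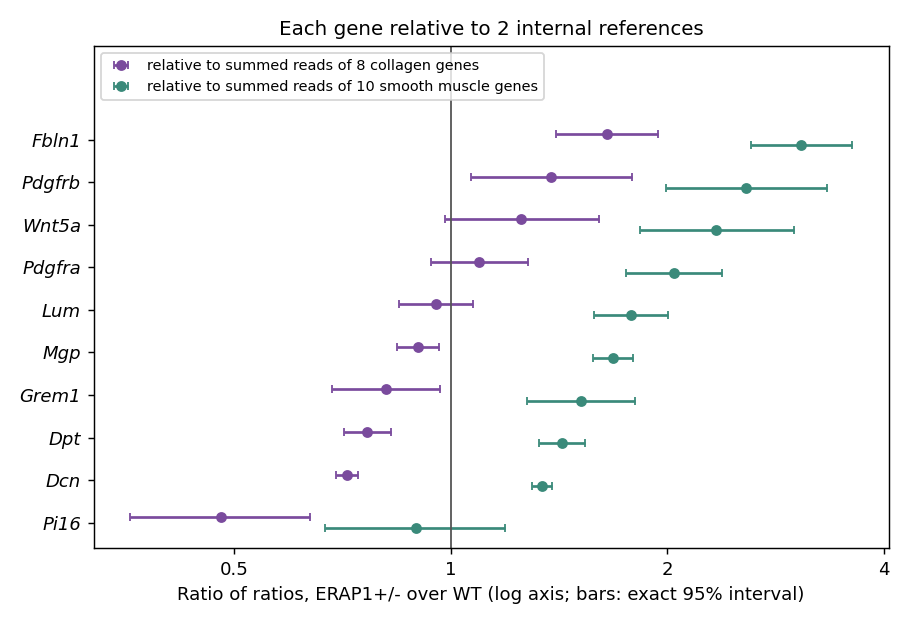
Ratio of the library labelled ERAP1+/- over WT for each stromal gene relative to the summed reads of 8 collagen genes (purple) and of 10 smooth muscle genes (green), on a log axis with exact 95% intervals. Against collagen the genes straddle 1, with *Pi16* at 0.480 and *Fbln1* at 1.65, and against smooth muscle all but *Pi16* lie above 1.

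Other stromal lists gave small differences. Of 13 general fibroblast genes, 10 lay below 0, 9 with an interval below 1 (6 by the total count), and the median was -0.25 (-0.12 by the total count). An interval below 1 was found for 23.8% of the 16142 genes and 32.4% of the 8013 past the level. *S100a4*, also expressed by leukocytes, was 1.92-fold lower (1.73 to 2.14; 950 and 591 reads), *Thy1* 1.55-fold lower (1.23 to 1.95), and *Pdpn*, shared with lymphatic endothelium, higher at a ratio of 1.40 (1.16 to 1.68). None of the 11 past the level differed more than 2-fold. Genes of the subepithelial niche and of hedgehog signalling, through which epithelium instructs the stroma, had a median of 0.17 (0.29 by the total count). Of their 9 intervals, 2 lay above 1 (beside 20.6% of the 16142 genes) and 7 included it, and by the total count 4 lay above 1. Their summed ratio was 1.13 (1.03 to 1.24), or 1.23 (1.13 to 1.35) by the total count. *Gli3* had 55 and 106 reads (ratio 1.61, 1.15 to 2.27), while *Ptch1* at 1.09 (0.915 to 1.30) and *Hhip* at 1.13 (0.945 to 1.34) had intervals that included 1. *Foxl1*, the marker of subepithelial telocytes, had 3 reads in each library.

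Markers of other tissues differed between the pools as well. All 10 epidermal genes (19574 and 272 reads together) and all 12 skeletal muscle genes (7699 and 189 reads) were lower in the library labelled ERAP1+/-, with medians of -5.36 and -4.57, and in that library *Ivl*, *Dsc1*, *Dsg1a* and *Atp2a1* had no read. Of 6 genes typical of dermal fibroblasts, 5 lay below 0 and the sum went from 222 to 120 reads, a ratio of 0.452 (0.359 to 0.566). *Prrx1* was 2.97-fold lower (2.09 to 4.27; 114 and 46 reads), *Twist1* 1.93-fold lower (1.16 to 3.29), and *Tbx15* had 12 WT reads and none in the other library. The skin and tendon also hold *Dcn*, *Dpt* and *Pi16* in their fibroblasts, and their part in the lower values was not tested. The tendon and cartilage genes had 2 of 6 with at least 10 reads (*Cilp*, 161 and 128, and *Scx*, 27 and 39). Mesothelial genes differed the other way, from 10 to 89 reads over 5 genes (ratio 7.43, 3.86 to 16.0), with *Msln*, *Upk3b* and *Lrrn4* at 0 reads in the WT library. Adipocyte genes went from 721 to 1653 reads (1.92, 1.75 to 2.09), and both *Adipoq* at 3.05 (2.07 to 4.59) and *Cfd* at 2.86 (2.40 to 3.43) were higher, although *Retn* was 2.43-fold lower (1.55 to 3.90). Macrophage genes had a summed ratio of 1.23 (1.16 to 1.31), endothelial genes 1.06 (0.975 to 1.16; by the total count 1.16, 1.06 to 1.27) and enteric glia genes 0.928 (0.806 to 1.07). The 3 markers of interstitial cells of Cajal were higher, with *Etv1* at 1.78 (1.37 to 2.32) and *Ano1* at 1.09 (1.03 to 1.17) beside *Kit*. Genes of the simple epithelium, which make up a large part of the tissue, had a summed ratio of 0.835 (0.826 to 0.844) and a median of -0.31. The part of fat, serosa, skin and muscle in the values of the stromal genes was not tested.

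**Figure D5:**
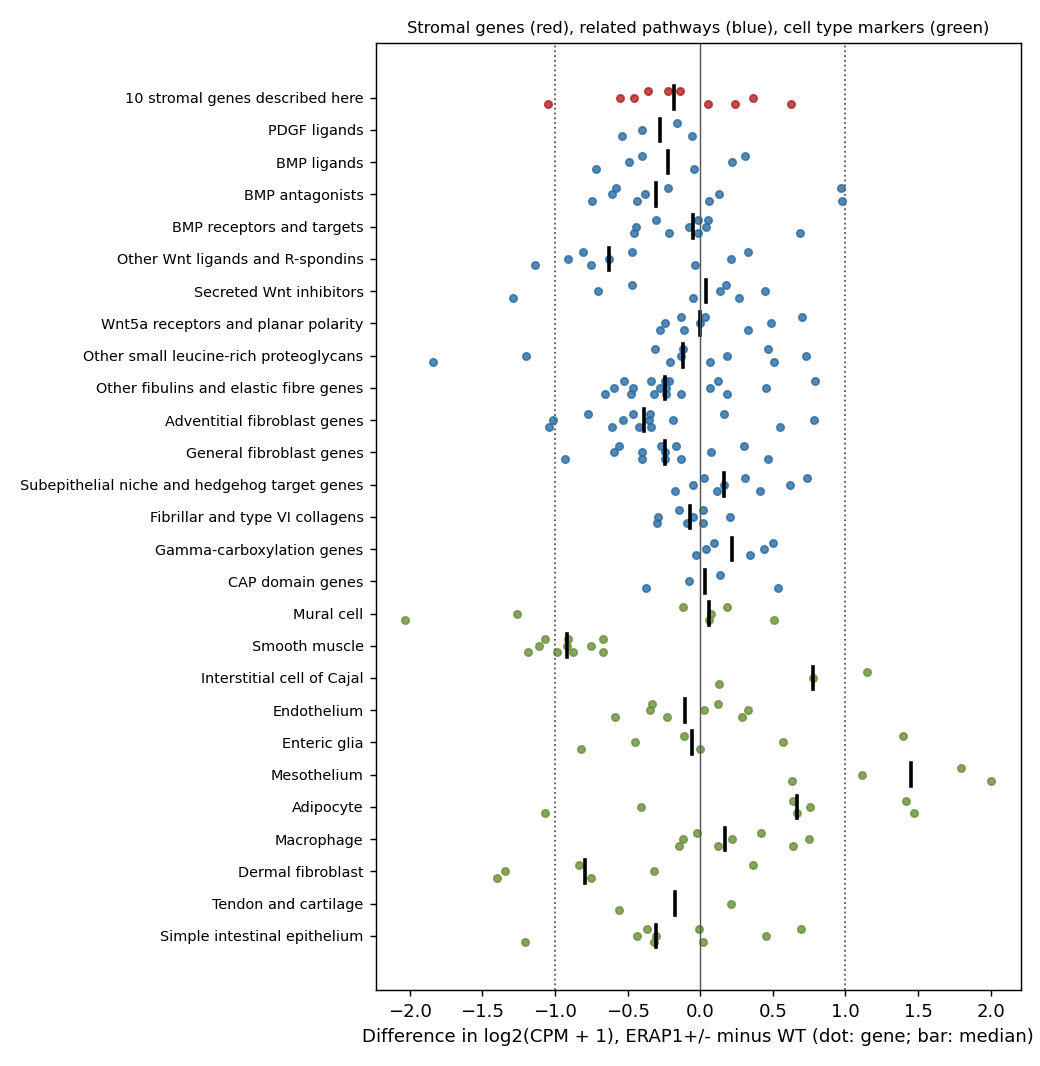
Difference in log2(CPM + 1), ERAP1+/- minus WT, for the 10 stromal genes (red), genes of related pathways (blue) and markers of other cell types (green) with at least 10 reads over both libraries; each dot is a gene, each black bar the median, and dotted lines mark 2-fold. Epidermis and skeletal muscle, with medians of -5.36 and -4.57, are left out for scale. Smooth muscle lies wholly below 0 (median -0.91), mesothelium wholly above (1.45), and the stromal genes spread on both sides of 0.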

How the data were processed

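Total RNA was extracted with Trizol and made into libraries with the QuantSeq 3′ mRNA-Seq kit (FWD), read from 1 end over 75 bp. The tables the authors deposited hold raw counts for each gene symbol. The methods name STAR with HTSeq-count and, elsewhere, Bowtie2 with RSEM on GRCm38, and which made the deposited counts is not stated. Whether strand was used in counting is not given in the sources used here, and *Dpt*, *Pdgfra*, *Pi16* and *Wnt5a* overlap annotated antisense genes.

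TMM factors (0.958 for WT and 1.04 for ERAP1+/-) came from edgeR 4.0.16 under R 4.3.3. A gene was called different where log2(CPM + 1) differed more than 2-fold and was at least 4 in 1 or both libraries. No model with a spread between replicates could be fitted to 1 library per group. Ratio intervals are exact conditional binomial ones (scipy 1.17.1), and ratios of ratios carry Fisher exact intervals. Scripts were tested on simulated data. Reads of different genes were set beside each other only as shares and read pairs, and these were not taken as the relative abundance of the transcripts. The read pairs set against each other within libraries were chosen after the values were seen.

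The members and the 28 lists (251 symbols) were chosen with earlier results of these data known. The rule for naming took all members, close relatives, and up to 4 genes per list with the largest differences among those with at least 50 reads, and not every gene it took is reported here. Others, such as *Cd81*, *Foxl1*, *Tbx15*, *Xist* and genomic neighbours, were picked for position or after their values were seen. Alternatives were DESeq2 1.42.0 size factors, the total count, TMM without skin, muscle and mitochondrial genes, a pseudocount of 0.1, other filters and a 4-fold threshold.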

Additional observations from a re-analysis of the deposited data

How the results depend on the processing

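Of 40 recomputed member differences, 37 stayed within the counting interval of the main value and none changed sign. The 3 others arose with scaling by the total count: *Dcn* was at -0.43, *Dpt* at -0.33 and *Mgp* at -0.10. The number of members past 2-fold was 1, but 0 with scaling by the total count and 0 with a 4-fold threshold. The median of the members was -0.18 and ran from -0.18 to -0.06 over the alternatives. Of all genes, 428 passed 2-fold (111 higher, 317 lower), 414 by the total count (166 and 248), 1390 with at least 10 reads, 1434 with no filter and 160 at 4-fold. No paired analysis was possible because the groups hold 1 library each. Depth limits *Pdgfrb*, *Wnt5a* and *Pi16*, with 77 to 164 reads per library.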
